A study of Rattus norvegicus with 4 samples.

Results

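Serpins are a family of proteins that mostly inhibit proteases by trapping them in an inactive complex. Some of them control the plasminogen-thrombin system. In that system the activators Plat and Plau turn plasminogen into plasmin, which degrades fibrin and matrix, and thrombin, made from F2, clots fibrinogen and signals to cells by cutting receptors. Glial cells are known to make both activators and inhibitors of this kind, and Serpine2 carries the name glia-derived nexin because it was found in medium from glial cells. The genes described here were those whose name in the array file began with Serpin, other than the collagen chaperone Serpinh1, with Plat, Plau, Plaur, Plg, F2, F2r, F2rl1, F3 and Thbd added. They came to 42 genes of 35655, read by 47 of the array's 41012 probes.

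The cells were cultured olfactory ensheathing cells, the glia that wrap olfactory axons, from male Fischer rats. They were sorted by flow cytometry on p75, the neurotrophin receptor encoded by Ngfr, into p75High and p75Low populations of 98% purity per the labels. Each of 4 biological replicates gave 1 two-colour Agilent array, on which p75High was always labelled with Cy5 and p75Low with Cy3. The dyes were not exchanged on any array, and the cDNA had been amplified by PCR. Neither the age of the rats nor the number of animals or cultures is given in the sources used here, so a p-value here reflects only how far these samples spread, part of which may be technical. Each value is the log2 ratio of p75High to p75Low, given as mean ± SD over 4 arrays, so that 1 unit is a doubling. The adjusted p of each gene is from limma over the 22193 genes tested, two-sided, with a threshold of 0.05. Levels are normalized log2 intensities of 1 channel, and they compare the same probe between samples but not different probes.

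The probes shown next were 60 bases long and came from the scanner files. They are shown because Serpine2 was read by 2 probes that differed in size of ratio, and because Plat and Serpinb6a, which also had large ratios, were each read by a single sequence. Sequences are written 5′ to 3′, with no base set in capitals.
Serpine2, first probe: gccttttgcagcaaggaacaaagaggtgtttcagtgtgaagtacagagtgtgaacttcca
Serpine2, second probe: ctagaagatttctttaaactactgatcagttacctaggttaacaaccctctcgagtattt
Plat: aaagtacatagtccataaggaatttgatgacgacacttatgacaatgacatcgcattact
Serpinb6a: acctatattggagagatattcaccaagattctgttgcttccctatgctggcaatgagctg

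The array file placed these probes on the rn4 rat genome build. The Serpine2 probes lay on the minus strand at chr9:79114055-79114114 and chr9:79091862-79091921, so the first was upstream of the second by 22.2 kb. The Serpinb6a probe lay at chr17:37334213-37334272 on the plus strand. The Plat probe was placed on the minus strand at chr16:73717402-73717547, a span of 146 bases that is longer than the probe. Strand was read from the order of the 2 coordinates, and that order matched the RefSeq strand for 95.1% of 15650 probes with a gene in both tables. The position of the probes within exons was not analysed here. The probes shared no run longer than 7 bases with each other.

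Signal was the first divide within the family. Of the 47 probes, 13 were well above background in both populations on all 4 arrays, and 8 were not well above background in either population on any array. Well above background is the scanner software's own call. A gene was tested when a probe had that call in the same population on at least 3 arrays, which kept 24 probes of 22 genes. Of the 20 genes left out, F2r, the main thrombin receptor, and Serpinb2, an inhibitor of urokinase, had no array above background in either population. Plau, which encodes urokinase, was above background on 2 arrays in each population, F3, the tissue factor that starts clotting, on 1, and Thbd, the thrombin-binding thrombomodulin, on 1 in p75High and 2 in p75Low. For these probes a difference was not measurable at this signal. Over all 23 probes that were not kept, which include second probes of tested genes, the mean ratios ran from -0.78 to 1.02.

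**Figure D1:**
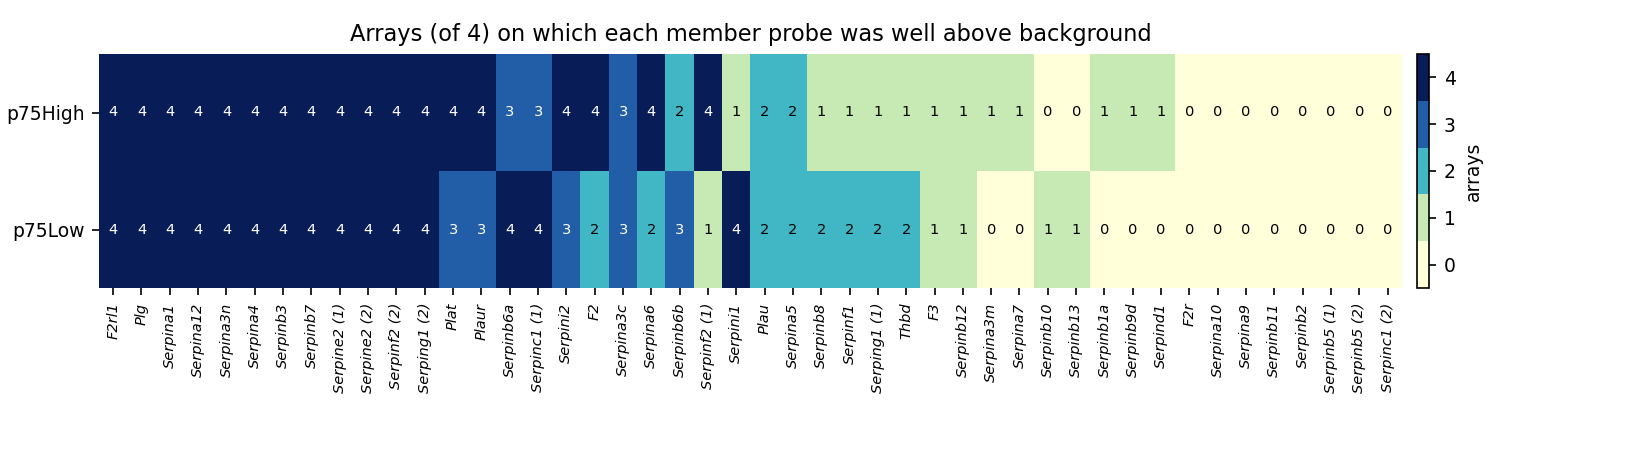
Number of arrays, from 0 to 4, on which each of 46 probes (columns, with probes of the same gene numbered) was well above background in p75High (upper row) and in p75Low (lower row). The 12 probes at the left were above background everywhere and the 8 at the right nowhere.

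Among the 22 tested genes, 2 were higher in p75High, 0 genes were lower and 20 did not pass. The share of all genes past the threshold was 0.311% upward, 0.437% downward and 0.748% in either direction. Serpine2 was 1 of them. At an unadjusted p under 0.05, 6 members were higher and 0 were lower, against 5.82% and 6.91% of all genes. These included Serpine2, Plat, Serpinb6a, Serpina12 and Serpina6. Serpina6 was well above background on 4 arrays in p75High and 2 in p75Low, so it passed the filter only through the population in which it was high. The median ratio of the 22 members was -0.05, and that of all genes was -0.03. On replicates 1 to 4 the median of the members was 0.51, 0.41, -0.31 and 0.08. That of all genes stayed between -0.02 and 0.001. An absolute mean ratio of 1 or less was found for 17 of the 22 members and for 15011 of the 22193 genes. A positive ratio on all 4 arrays was seen in 5 members (12.5% of all genes), and a negative one in 1 member (13% of all genes).

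**Figure D2:**
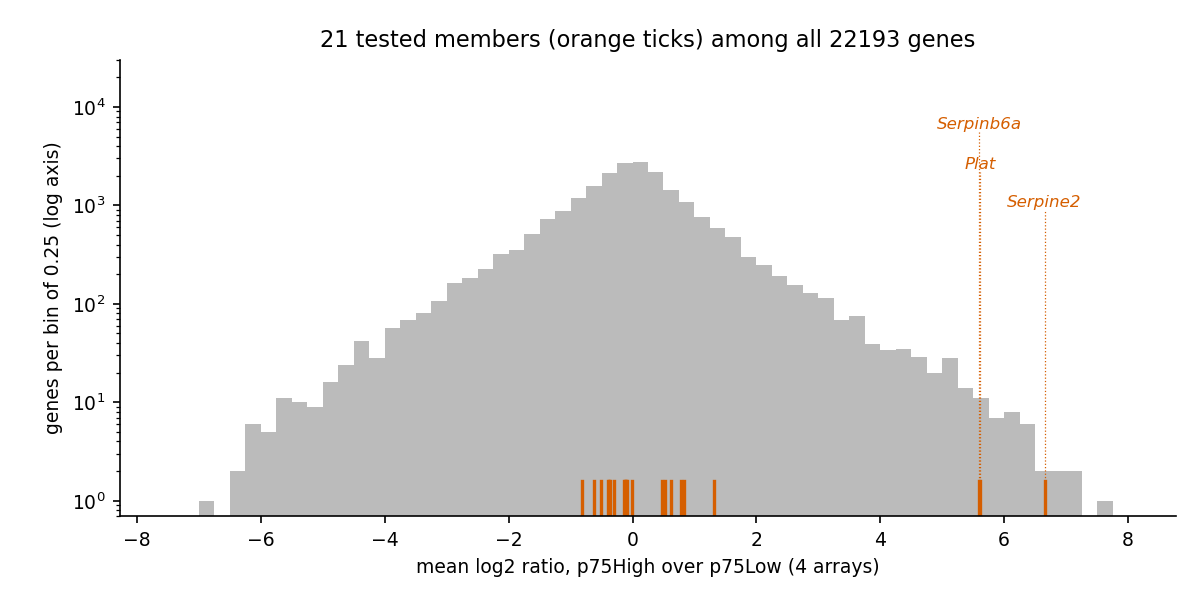
Histogram of the mean log2 ratio of p75High over p75Low for all 22193 genes, on a log count axis, with an orange tick for each of 21 tested members. The ticks of Serpinb6a, Plat and Serpine2 lie between 5.60 and 6.65, apart from the other 18, which lie between -0.81 and 1.32.

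Serpine2 had the largest mean ratio of the tested members by the probe that stood for the gene. It encodes glia-derived nexin, a secreted inhibitor of thrombin, urokinase and tissue plasminogen activator. By its first and brighter probe, which stood for the gene, the ratios were 7.75, 5.59, 7.39 and 5.88 for replicates 1 to 4. The p75High levels were 17.04, 16.44, 16.96 and 16.13, and the p75Low levels were 9.29, 10.85, 9.57 and 10.25. The populations did not overlap, and both were well above background on every array. The mean ratio was 6.65 ± 1.08, a 100.6-fold difference (95% confidence interval 5.33 to 7.98, adjusted p = 0.0262 in limma). In sorted bulk samples such as these, more cells that express a gene and more RNA per cell cannot be told apart.

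The second Serpine2 probe had the same direction on every array but smaller ratios. It read 3.61, 4.45, 7.33 and 2.83 for replicates 1 to 4. Its mean of 4.56 was below those of Plat (5.61) and Serpinb6a (5.60). Its p75High levels stayed within 14.82 to 15.50. Its p75Low levels were 11.73, 11.05, 7.85 and 11.99, so replicate 3 stood low in that population and gave a ratio close to the 7.39 of the first probe. Tested on its own among all kept probes in limma, the second probe did not pass (adjusted p = 0.169) while the first did (adjusted p = 0.0266). The median over both probes gave 5.60 with an adjusted p of 0.0461 in limma.

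The call of Serpine2 rested on all 4 arrays. Without any 1 replicate it did not pass in limma, with an adjusted p of 0.0964 to 0.138, although the ratio stayed between 6.29 and 7.01. This was not particular to Serpine2, since 0 of all genes passed in limma without any 1 replicate. With no filter on dim probes Serpine2 had an adjusted p of 0.0549 in limma.

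Serpinf2, Serpini1 and Serpinc1, which inhibit proteases of this system, did not pass the threshold. Serpinf2, which inhibits plasmin, read 1.24, -0.18, -1.33 and -0.22 for replicates 1 to 4 by its brighter probe, and its other probe had a mean of 0.18. Serpini1, the neuronal serpin that inhibits tissue plasminogen activator, read 0.44, -0.64, -0.49 and -0.52, and its probe was well above background on 4 arrays in p75Low and 1 in p75High. Serpinc1, antithrombin, was the only tested member with a negative ratio on all 4 arrays, at -0.72, -0.44, -0.16 and -0.29, and its mean was -0.40 ± 0.24 (adjusted p = 0.572). Signs were mixed over the arrays for the other 2. The 95% confidence intervals were -1.43 to 1.18 for Serpinf2, -1.16 to 0.56 for Serpini1 and -1.13 to 0.32 for Serpinc1 in the fit reported here. With the scanner software's ratios the means of Serpini1 and Serpinc1 were -1.88 and -1.22, outside those intervals, and neither passed in limma (adjusted p = 0.411 and 0.458). Serpina5, Serpina10, Serpinb2 and Serpind1 of this group were not tested. Serpind1, the heparin-dependent thrombin inhibitor, was above background once, in p75High of replicate 3 at a level of 9.70, where the other 3 levels were 5.94 to 6.13.

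**Figure D3:**
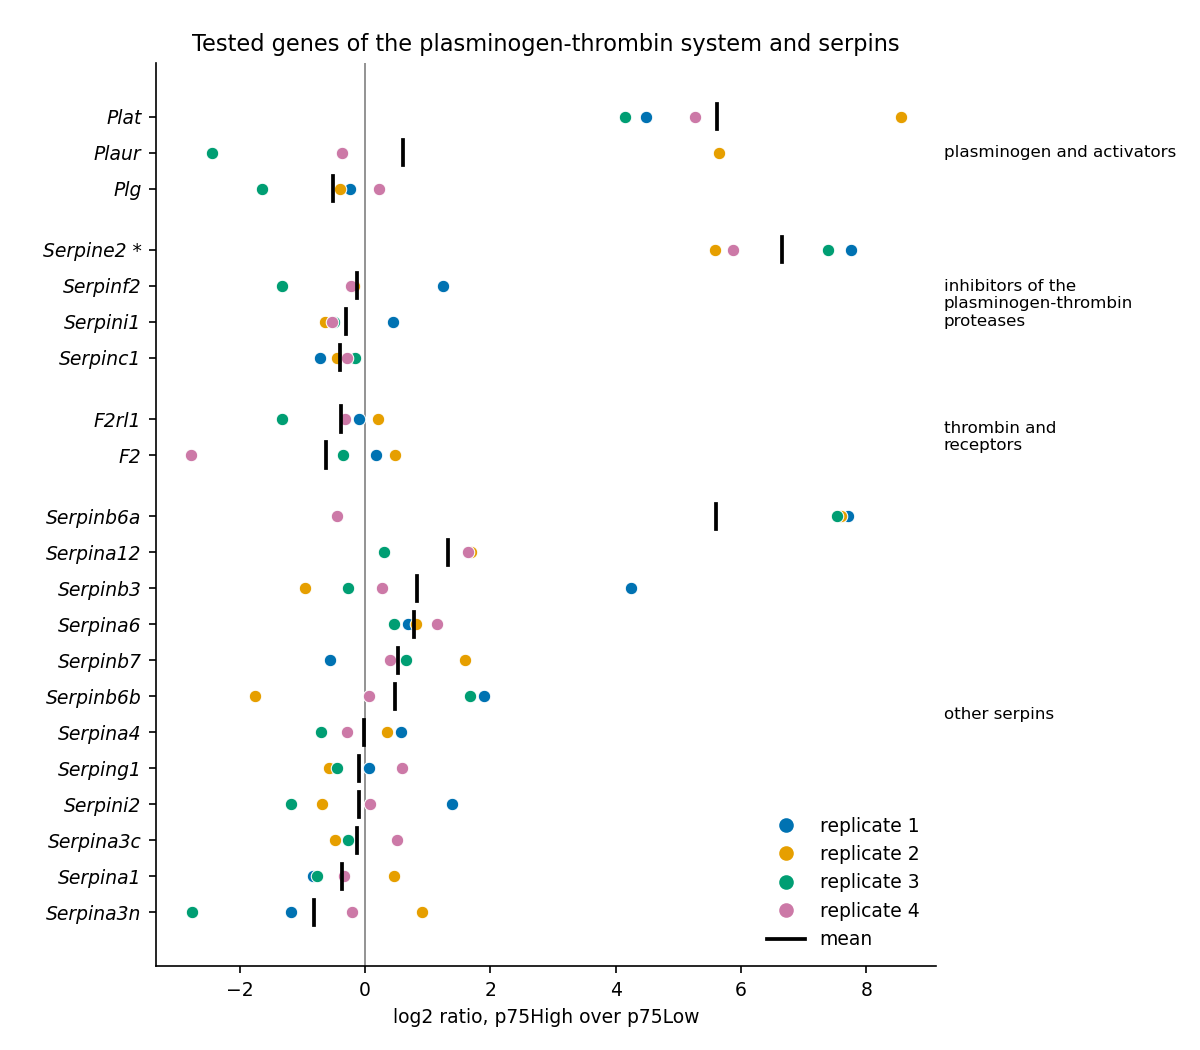
Log2 ratio of p75High over p75Low for 21 tested genes, grouped by role, with a point for each of the 4 replicates and a black bar at the mean. An asterisk marks an adjusted p under 0.05 in limma, reached here by Serpine2 (mean 6.65). Plat is positive on all 4 arrays, and Serpinb6a is near 7.6 on 3 arrays and at -0.44 on replicate 4.

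The protease side gave 1 large ratio that did not pass. Plat encodes tissue plasminogen activator, a protease that Serpine2 inhibits. Its ratios were 4.48, 8.55, 4.15 and 5.27 for replicates 1 to 4, so every array had more signal in p75High. The p75High levels were 15.82, 15.88, 15.00 and 11.89, and the p75Low levels 11.34, 7.33, 10.85 and 6.62. Replicate 4 was lowest in both populations, and its p75Low signal was not well above background. The highest p75Low level was below the lowest p75High level, though by less than the spread within each population. The mean was 5.61 ± 2.01 (95% confidence interval 3.38 to 7.85), with an unadjusted p of 0.00159 and an adjusted p of 0.109 in limma. Over the alternatives the mean ran from 4.63 to 6.96 and the adjusted p in limma from 0.0806 to 0.277. The 10 spots of the Plat probe had SDs of 0.04 to 0.07 on replicates 1 to 3 and 0.27 on replicate 4, well under the 2.01 between arrays.

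Plasminogen itself and the urokinase receptor did not pass. Plg read -0.24, -0.39, -1.64 and 0.22 (mean -0.52 ± 0.80, adjusted p = 0.619 in limma). Plaur, which holds urokinase at the cell surface, read -0.37, 5.64, -2.45 and -0.37, with a mean of 0.61 ± 3.49 and a 95% confidence interval of -3.14 to 4.37. Its replicate 2 stood high in p75High, where the other 3 levels were 5.99 to 6.98, and replicate 3 had the highest p75Low level, at 8.44. Without replicate 2 the mean of Plaur was -1.06, so its direction rested on that array.

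**Figure D4:**
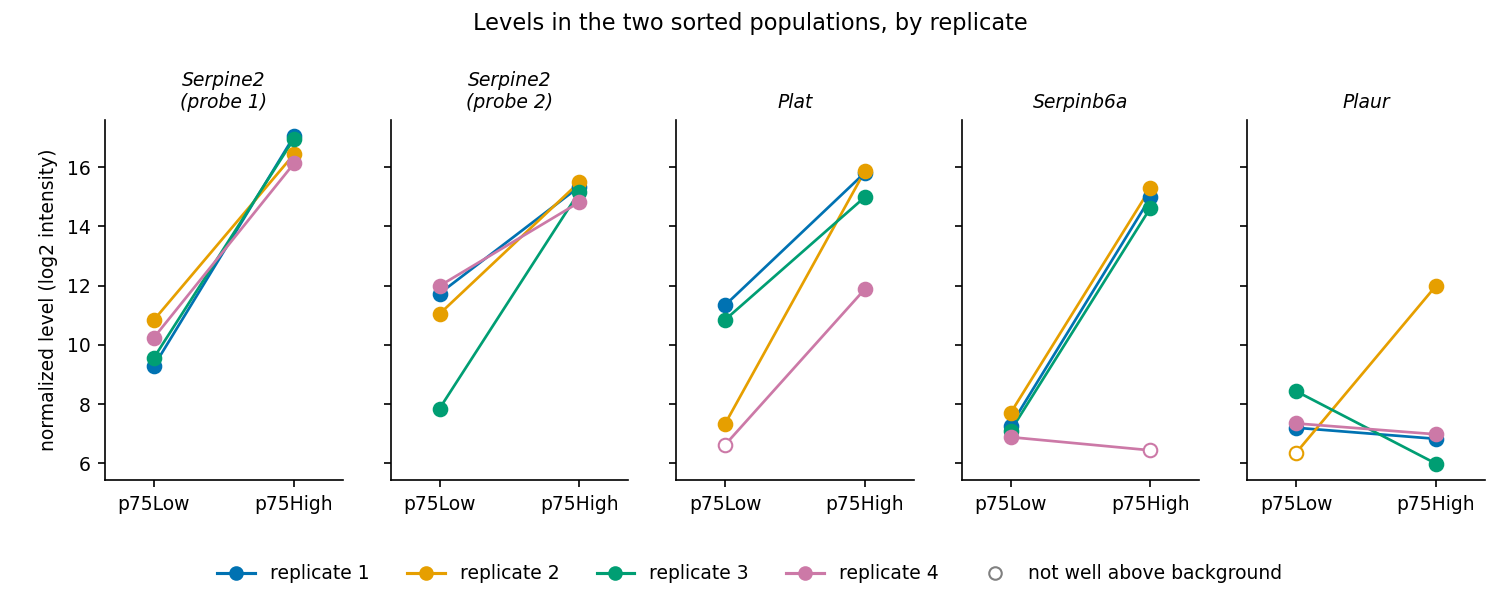
Normalized log2 intensity of 5 probes in p75Low and p75High, with a line for each of the 4 replicates and open points where the signal was not well above background. Lines rise on all 4 replicates for both Serpine2 probes and Plat, on 3 for Serpinb6a and on 1 for Plaur.

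Of the 5 genes for thrombin, its receptors, tissue factor and thrombomodulin, F2 and F2rl1 were tested and neither passed. F2, which encodes prothrombin, read 0.18, 0.48, -0.35 and -2.77 for replicates 1 to 4 (mean -0.61 ± 1.48, adjusted p = 0.7 in limma). The low value came from replicate 4, where the p75Low level was 10.20 and the other 3 p75Low levels were 6.14 to 7.24, and without that replicate the mean was 0.10. F2rl1, a receptor of the same family that is cut mainly by trypsin-like proteases, was well above background in both populations on all arrays. It read -0.09, 0.20, -1.32 and -0.32, with a mean of -0.38 ± 0.66 and a 95% confidence interval of -1.36 to 0.59.

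Among the 24 other serpins, 12 were tested and 0 passed. Serpinb6a, an intracellular serpin, had the largest mean of these, and is named because of its values and not by the rule for named genes. It read 7.71, 7.60 and 7.53 on replicates 1 to 3 and -0.44 on replicate 4 (mean 5.60 ± 4.03, adjusted p = 0.321 in limma). The p75High levels were 14.98, 15.30, 14.63 and 6.44, and the p75Low levels were 7.27, 7.70, 7.10 and 6.89. The change was thus in p75High, where replicate 4 was not above background, while p75Low was above background on all arrays. Without replicate 4 the mean was 7.61 (adjusted p = 0.0964 in limma), above the 6.91 of Serpine2 in the same setting. The p75High levels of Plat and of both Serpine2 probes were also lowest on replicate 4, at 11.89, 16.13 and 14.82. Other members went the other way, such as Serpina4 and Serpinb7, whose p75High levels were highest on replicate 4, at 10.18 and 9.52. Their p75Low levels were highest there too, at 10.47 and 9.11. The median p75High level over all probes was also highest on that array, at 6.78. On replicate 4, 22464 probes were well above background in p75High, against 25086 to 28062 on the other arrays, and the part of this in the result was not tested.

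Serpinb6b, from the same family, did not follow Serpinb6a. It read 1.90, -1.75, 1.67 and 0.07 (mean 0.47 ± 1.69), and its probe matched that of Serpinb6a at no more than 21 of 60 bases in any ungapped position. Serpina12, the adipokine vaspin, was positive on all 4 arrays at 1.64, 1.69, 0.30 and 1.64, and Serpina6, the carrier of corticosteroids in blood, at 0.69, 0.81, 0.47 and 1.15. Their means were 1.32 ± 0.68 (adjusted p = 0.315 in limma) and 0.78 ± 0.28 (adjusted p = 0.378 in limma), and neither passed. With the scanner software's ratios the mean of Serpina6 was 2.33 (adjusted p = 0.182 in limma). Serpinb3 was high on replicate 1 alone, at 4.25 against -0.96 to 0.27, and its mean was -0.32 without that replicate. Serpina3n, a serpin known from reactive glia, read -1.19, 0.92, -2.75 and -0.21, with no common direction. The means of the other 6, which were Serpina1, Serpina3c, Serpina4, Serpinb7, Serping1 and Serpini2, ran from -0.37 to 0.52.

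Many serpins lie in tandem clusters, in which only part of the genes could be tested. On chromosome 17 of rn4, 4 genes between 37334213 and 37956814 held Serpinb6a and Serpinb6b, at 5.60 and 0.47, while Serpinb1a and Serpinb9d were not tested. On chromosome 6, between 127893107 and 128469256, 6 of 10 clade A genes were tested, with means of -0.81 to 1.32. On chromosome 13, between 13056384 and 13738429, 2 of 9 clade B genes were tested, with means of 0.52 and 0.83. None of the genes in these clusters passed the threshold. Serpine2 lay outside them, on chromosome 9.

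Genes around this system were read from a list of 48 that held plasminogen receptors, clotting factors, other inhibitors and related proteases. Of 32 tested, 0 were higher and 0 were lower in limma, and at an unadjusted p under 0.05 there were 2 higher and 0 lower. Over all genes the shares higher and lower were 0.311% and 0.437% past the threshold, and 5.82% and 6.91% at the unadjusted p. The median ratio of the 32 was 0.30, beside -0.03 for all genes. On replicates 1 to 4 their median was -0.03, 0.04, 0.25 and 0.43. Spint1, a membrane inhibitor of hepatocyte growth factor activator, read 0.96, 2.16, 1.93 and 1.69 (mean 1.69 ± 0.52, adjusted p = 0.186). Prss23, a secreted serine protease, had a mean of 3.12 ± 2.78. S100a10, a subunit of a plasminogen-binding complex, read 0.77, 6.60, 7.80 and 0.09, high on 2 arrays and far lower on the other 2. F8, clotting factor VIII, had 2.70 ± 2.98 with 6.69 on replicate 4. None of these 3 passed.

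Some lists of cell type markers differed between the populations. Ngfr was higher in p75High on all 4 arrays, at 5.02 to 6.17. It encodes the protein used for the sort, so its direction was set by the sort. Of 18 microglia and macrophage markers 16 were tested, 0 had a positive mean and 8 were lower past the threshold. Their summed level was 13634 to 19909 in p75High and 272754 to 386368 in p75Low, and on every array all 16 were above background in p75Low and 15 or 16 in p75High. The summed level of 12 tested glial markers was 38014 to 52440 in p75High and 4286 to 15475 in p75Low. The 12 include Ngfr, which alone passed the threshold in limma, and 10 of the 12 had positive means. That of 6 tested fibroblast markers was 60635 to 84229 in p75High and 13284 to 34944 in p75Low, but single fibroblast markers went both ways. Col1a1 and Postn had positive means of 2.73 and 4.80, the other 4 had means of -2.71 to -0.89, the median was -0.94, and 0 passed in limma, with 2 higher and 2 lower at an unadjusted p under 0.05. All 4 tested endothelial markers had positive means, with a median of 1.19. At an unadjusted p under 0.05, 2 of them were higher, and 0 passed in limma. The 4 tested smooth muscle and pericyte markers had means of -0.17 to 0.45. The 5 tested neuron markers had means of -1.02 to 0.68. In both of these lists 0 passed in limma. The part of the marker differences in the ratios of Serpine2 and Plat was not tested.

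**Figure D5:**
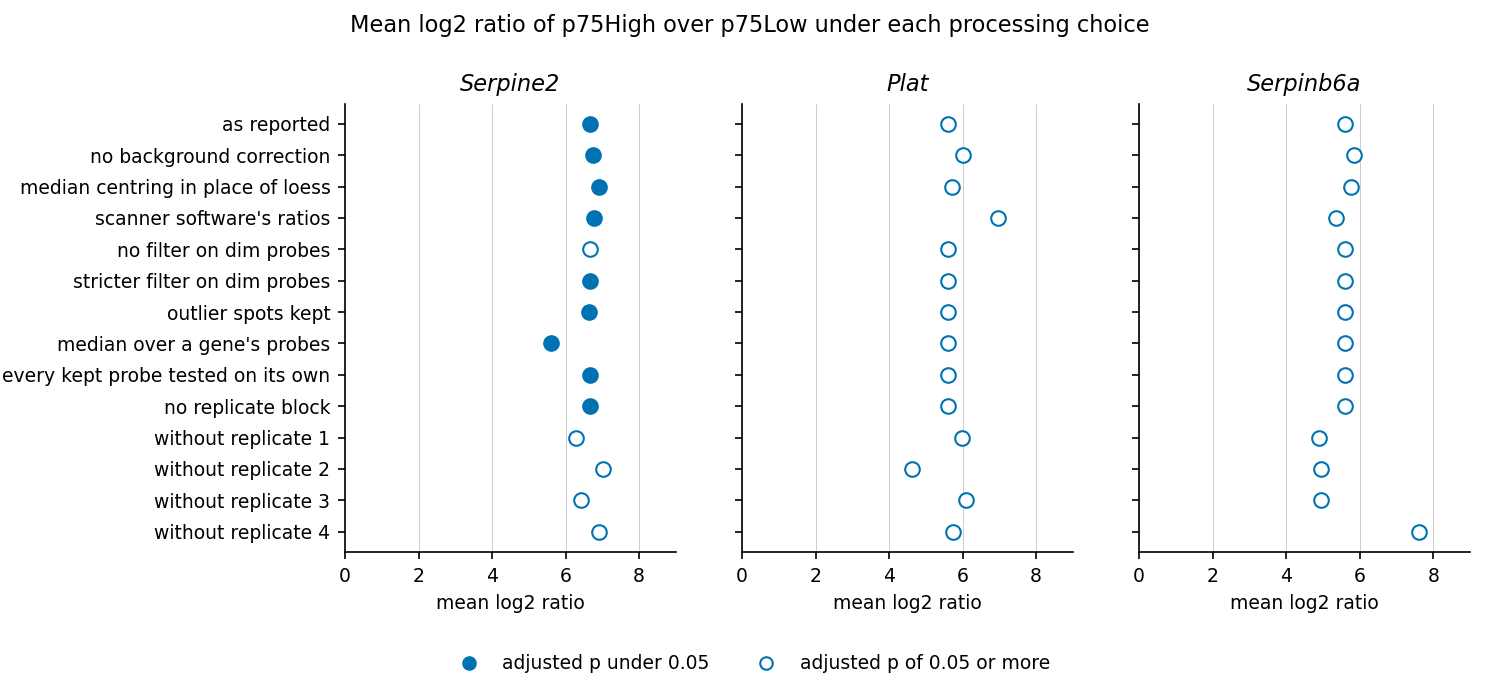
Mean log2 ratio of p75High over p75Low for Serpine2, Plat and Serpinb6a as reported and under 13 other processing choices, with filled points where the adjusted p in limma was under 0.05. All points are above 0, those of Serpine2 between 5.60 and 7.01, and points without any 1 replicate are open for each gene.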

How the data were processed

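The deposited intensity values (mean spot brightness and median local background, per channel, not normalized) and the log10 ratios of red to green, as deposited, came from Agilent Feature Extraction 10.5.1.1, per the file headers. The submitters' processing notes give version 10.5. The array was design 014879, placed on build rn4 per the file headers, and the 4 arrays shared 1 slide. The authors' value table held the same log10 ratios, with a maximum difference of 0 and column medians of 0. The on-off flags for background and outliers were deposited by the authors with each spot.

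In limma 3.58.1 under R 4.3.3, normexp with an offset of 50 corrected the background and loess with a span of 0.3 normalized each array, with control spots and outliers at weight 0. Outlier readings (1112 of 173516) were left out and 0 were saturated. Repeat spots were averaged to 41012 probes. Probes needed the well-above-background call in 1 given channel on 3 or more arrays (24941 kept), and each gene was read by its brightest such probe, giving 22193 genes. Between 22464 and 28062 probes were above background in p75High and 23044 to 26174 in p75Low. Levels were taken after Aquantile normalization. The number of arrays, 4, limits precision.

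The log2 ratio was tested against 0 with lmFit and eBayes, two-sided, with Benjamini-Hochberg adjustment over all genes. Each ratio is a difference within 1 replicate, since the series' design text states paired samples. Deviations of channels on the same array correlated at 0.13, 0.06, 0.07 and 0.26, and at most at 0.05 between arrays. Names were updated from RefSeq (GRCr8, names and strand only), where 10835 probes matched by accession, 5196 by symbol, 3478 by an older symbol and 21503 not at all. The file's Serpina3k became Serpina3c and its Serpinb9e became Serpinb9d. Near-identical serpin paralogs may share a probe's signal, which was not analysed here. The test was first run on simulated data with known changes. Named members were those past the threshold, tested activators and receptors, and up to 4 others per role with 1 sign on all arrays. Plg, F2, Serpinf2, Serpini1, Serpinb3, Serpinb6a, Serpinb6b and Serpina3n, and the untested members given by name, were named after their values were seen. Of the neighbouring genes, the 4 with the smallest p were named. Members and lists were chosen with earlier results of these data known. The values of 1 member are not reported here, though it is kept in the counts and medians.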

Additional observations from a re-analysis of the deposited data

Results flagged for a closer look

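Among 59 sets of 4 array values (47 probes and 12 list medians), 10 had 1 array far from the other 3. The cut is one that about 1 in 20 sets of independent, normally distributed values would pass. These sets are not independent, since some list medians were taken over the same members, so the 10 are not read against chance. Replicate 4 was that array in 4 of them, replicate 1 in 3, replicate 3 in 2 and replicate 2 in 1. Of tested genes, Serpinb6a read -0.44 on replicate 4 and 7.53 to 7.71 on the others, Serpina12 read 0.30 on replicate 3 and 1.64 to 1.69 on the others, and Serpini1 read 0.44 on replicate 1 and -0.64 to -0.49 on the others. The median of the tested inhibitors of the plasminogen-thrombin proteases was 1.24 on replicate 1, which is the value of Serpinf2, and -0.22 to -0.16 on the others.

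Probes that were too dim to be tested gave the other 6. Serpinb1a, an inhibitor of neutrophil proteases, read 4.15 on replicate 2 and -0.12 to 0.08 elsewhere, and its p75High level there was 10.41 against 6.01 to 6.10. Serpind1 read 3.62 on replicate 3 and -0.30 to -0.04 elsewhere. Serpinb8 read -3.27 on replicate 4 and -0.03 to 0.63 elsewhere. Plau read -2.75 on replicate 4 and -0.37 to 0.12 elsewhere, and its p75Low level there was 10.05 against 6.20 to 6.49. F3 read -1.23 on replicate 1 and -0.08 to 0.07 elsewhere. The second Serpinc1 probe, not above background on any array, read 0.38 on replicate 4 and -0.01 to 0.02 elsewhere.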

How the results depend on the processing

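The number of members higher in p75High was 2 as reported and in 7 of 9 settings that kept all arrays. It was 1 with the scanner software's ratios, where Serpine2 remained, and 1 with no filter on dim probes, where 42 members were tested and Serpine2 did not pass. Without any 1 replicate it was 0 in limma, with 3 to 4 members higher at an unadjusted p under 0.05. The number lower was 0 in every setting, and so were those of the neighbouring genes. Over all genes, 69 were higher and 97 lower as reported, 111 and 154 with the scanner software's ratios, 37 and 52 with no filter, 152 and 156 with no replicate block (the pairing ignored), and 0 without any 1 replicate. With the pairing ignored 2 members were still higher, and no other call among the members changed. The median of members ran from -0.18 to 0.24 over the settings. In each setting it differed from the reported -0.05 by less than the SD of the 4 array medians, 0.37. Median centring moved the median of all genes from -0.03 to 0.13. Among genes named but not called, Serpinf2 turned to 0.040 with median centring and 0.029 with the median over its probes. Without 1 replicate in turn, the mean crossed 0 in 5 genes, with ranges of -1.06 to 1.63 for Plaur, -0.98 to 0.10 for F2, -0.58 to 0.28 for Serpinf2, -0.32 to 1.42 for Serpinb3 and -0.0050 to 1.21 for Serpinb6b. The cause was not tested. With 4 arrays and fixed dyes, dye and population cannot be told apart for any 1 gene.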
